A study of Mus musculus with 10 samples.

Results

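The mouse kidney cortex at day 2 after injury was compared with uninjured cortex, cell class by cell class. Cells were taken from the library labelled control and the library labelled day 2, and each was kept when its barcode held at least 500 detected genes and at most 50% mitochondrial counts. This left 6134 barcodes of the control and 4087 of day 2, together 10221 of the 52797 barcodes that pass the same limits in the 10 libraries of the series. Both libraries came from kidney cortex of mice aged 4 weeks, the control from normal kidneys and the other from injured kidneys. The kind of injury, the strain, the sex, the number of animals and any pooling are not given in the labels, and nothing in them says how many animals a library represents. With 1 library on each side there is no replicate check. No test was made, and every ratio, share and interval compares these libraries, not the conditions.

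The nephron filters blood in the glomerulus and then reclaims most of the filtrate in the proximal tubule, whose early part takes back glucose and amino acids and whose late, straight part secretes organic anions and drugs. The thick ascending limb, distal convoluted tubule and collecting duct follow and adjust salt, calcium, magnesium, water and acid. Injured tubule cells are known to lose transport genes, to express proteins such as KIM-1 (gene Havcr1) and neutrophil gelatinase-associated lipocalin (gene Lcn2), to re-enter the cell cycle and to release chemokines that draw in monocytes and neutrophils.

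The kept barcodes held 29446508 counts of unique molecular identifiers (UMIs, 1 per captured mRNA) in the control and 16281606 on day 2. Median depth was 2661.5 UMIs and 1099 genes per barcode in the control and 1840 UMIs and 1003 genes on day 2. Mitochondrial transcripts made up 23.6% of control UMIs and 10.5% of day 2 UMIs. The gap lay in the 2 mitochondrial ribosomal RNAs, at 18.2% and 5.10%, while the other mitochondrial genes were at 5.39% and 5.37%. The limit on mitochondrial counts removed 611 control barcodes and 28 of day 2. The libraries shared 1 barcode sequence. Markers of the labelled tissue were present in both: the 10 proximal tubule markers summed to 11978 counts per 1000000 UMIs (CPM) in the control and 12533 on day 2, and the 8 podocyte markers to 155 and 215. The Y-linked Ddx3y was at 71.7 and 70.3 CPM. As a measure of how far libraries of 1 day lie apart, the paired libraries of days 7, 11 and 14 had 95% of their genes within 1.83-fold, 1.75-fold and 1.65-fold of each other, and 3.43%, 2.33% and 2.34% of genes at least 2-fold apart. Some genes named below lay further apart. Igha was at 57.96 and 1.13 CPM in the day 11 libraries, and Slc7a13 at 5.08 and 63.3 in those of day 7.

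Barcodes were assigned to 13 classes by the share of their UMIs that came from marker genes. Proximal tubule barcodes were 59.4% of the control (3641 barcodes, exact 95% Clopper-Pearson interval 58.1 to 60.6) and 46.5% of day 2 (1900 barcodes, 44.9 to 48.0). All intervals in the text cover counting error only. The thick ascending limb was at 11.9% (733 barcodes) and 3.70% (151 barcodes), and the distal convoluted tubule at 4.47% (274 barcodes) and 0.0489% (2 barcodes). Both of these classes were rich in mitochondrial counts in the control, with medians of 34.04% and 33.9% per barcode against 7.94% in the thick ascending limb of day 2. With at most 25% mitochondrial UMIs per barcode, the thick ascending limb shares were 4.64% (156 of 3361) and 3.94% (146 of 3702), and the distal convoluted tubule shares were 1.84% (62 barcodes) and 0. How far cell loss during preparation shaped these shares was not tested. Summed over all barcodes, the 4 distal convoluted tubule markers were at 1047 CPM in the control and 142 on day 2, and the 6 thick ascending limb markers at 4569 and 1335. Fewer cells of a type and less RNA per cell cannot be told apart in such sums.

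Collecting duct principal cells were 3.78% of the control (232 barcodes) and 7.12% of day 2 (291 barcodes), and intercalated cells 2.18% (134) and 1.39% (57). Endothelial barcodes were at 5.27% (323) and 9.18% (375), stromal barcodes at 1.09% (67) and 1.64% (67), and podocytes at 1.11% (68) and 0.807% (33). Macrophage barcodes, gated on complement C1q, Csf1r and other monocyte and macrophage genes, were at 0.766% (47) and 6.17% (252). T or NK cells were at 0.408% (25) and 0.930% (38). No control barcode passed the neutrophil gate, which allows a share of up to 0.0489% (3 barcodes of the total), and 37 did on day 2 (0.905%). A further group expressed general epithelial genes such as Epcam, Cdh16 and Krt8 but passed no segment gate: it held 17 control barcodes (0.277%) and 321 of day 2 (7.85%). The intervals of the control and day 2 shares did not overlap for the proximal tubule, thick ascending limb, distal convoluted tubule, collecting duct principal, intercalated, endothelial, macrophage, neutrophil and T or NK classes or for the epithelial group without a segment. They overlapped for podocytes and stromal cells. With at most 25% mitochondrial UMIs per barcode, the intervals overlapped for the thick ascending limb, for endothelial barcodes (9.19% and 10.1%), for T or NK cells (0.684% and 1.03%) and for intercalated cells, whose shares changed order to 1.13% and 1.35%. Those of podocytes, at 1.96% and 0.891%, then no longer overlapped. A class is a range of marker share, and some barcodes lay within 1.5-fold of the minimum of a gate, on either side of it: 222 in the control and 495 on day 2 for the proximal tubule gate, 260 and 137 for the thick ascending limb, 63 and 214 for principal cells, 33 and 46 for intercalated cells, 50 and 81 for endothelial cells and 0 and 47 for macrophages. For the general epithelial gate they were 718 and 387, counted over all barcodes, including those that passed a segment gate. How many of these could enter the group without a segment was not counted. With all gate shares halved, the day 2 minus control difference of that group was 3.83 percentage points, against 7.58. The B cell gate held 6 and 5 barcodes, barcodes that passed several gates were set aside as mixed (5.97% and 5.11%), and 3.28% and 8.54% passed none.

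**Figure D1:**
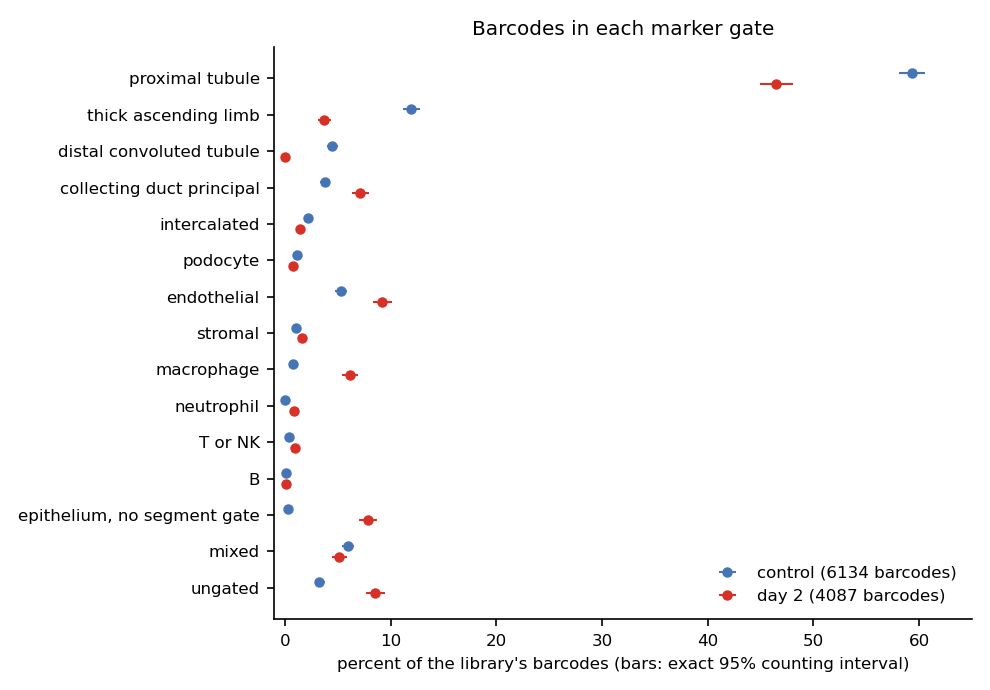
Percent of the library's barcodes in each marker gate (x axis) for the control and day 2 libraries; points are the measured shares and bars the exact 95% counting interval. Macrophages stand at 0.766% and 6.17% and the thick ascending limb at 11.9% and 3.70%.

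Over all kept barcodes, 13778 genes had at least 50 UMIs in the 2 libraries together. Of these, 2906 (21.1% of genes tested) were at least 2-fold higher on day 2 in CPM and 739 (5.36%) at least 2-fold lower. The median gene stood at 1.29 times its control level (0.36 on the log2 scale). Scaled to that median instead of the total, 1906 genes were at least 2-fold higher and 1282 at least 2-fold lower. Of the 106 tested interferon-response genes, 103 were at least 2-fold higher, with a median ratio of 28.5, and they are left out of the ranked genes that follow.

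The genes that stood highest on day 2 outside that list were chemokines, cornified-envelope proteins and neutrophil calprotectin. Ccl2, Ccl7 and Ccl12 encode monocyte chemoattractants and lie within 1 cluster on chromosome 11 (chr11:82035571-82037453, chr11:82045712-82047525 and chr11:82101845-82103400 in GRCm38). Ccl2 had 15 UMIs in the control and 5411 on day 2, a CPM ratio of 652 (95% counting interval 395 to 1167). Ccl12 had 6 and 2637 UMIs, a ratio of 795 (365 to 2168). Ccl7 had no control UMI and 1905 on day 2, which makes it at least 1148-fold higher against a floor of 3 counts in the control library. Sprr2f and Sprr2g, on chromosome 3 (chr3:92365187-92366442 and chr3:92373915-92375229), belong to the small proline-rich proteins of stratified epithelia. They had no control UMI and 2678 and 1159 UMIs on day 2, at least 1615-fold and 699-fold higher. The Sprr2 genes are near-identical copies, so how the reads were divided among them is uncertain. Sprr1a, a relative in the same cluster, had 1 and 593 UMIs (ratio 1073, 192 to 42431), and a ratio of 179 without the deepest 5% of barcodes. Of its day 2 UMIs, 364 lay in 4 very deep barcodes with urothelial genes, described below. S100a8 and S100a9, the subunits of calprotectin, had 9 and 2928 UMIs (ratio 588) and 15 and 2902 UMIs (ratio 350). The remaining members of the 10 with the firmest ratios were Ifi202b (2 and 3979 UMIs) and Ms4a4c (4 and 1916 UMIs), which are known to respond to interferon although they were not on the list.

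At the other end stood distal tubule genes, late proximal transporters and immunoglobulin genes. Egf, the precursor of epidermal growth factor made in the thick ascending and distal tubule, was at 1895 CPM in the control and 25.7 on day 2, 73.8-fold lower (67.0 to 81.5). Pvalb, the calcium-binding parvalbumin of the distal convoluted tubule, had 8883 and 12 UMIs, 409-fold lower (234 to 792). Slc22a7, an organic anion transporter, had 1986 and 3 UMIs, 366-fold lower (125 to 1776). Slc22a19 had 1248 and 6 UMIs, Mep1b, a brush border metalloprotease subunit, 935 and 1, and Sec14l3 680 and 1. BC018473, a transcript whose annotated type is antisense although no annotated gene overlaps it, had 3731 and 2 UMIs. Igha, Igkc and Igj, the genes of secreted immunoglobulin A, had 9485, 5915 and 3131 UMIs in the control and 1, 38 and 3 on day 2. The control Igha UMIs came from 170 barcodes, and 23 barcodes that passed no gate held 75.95% of them.

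**Figure D2:**
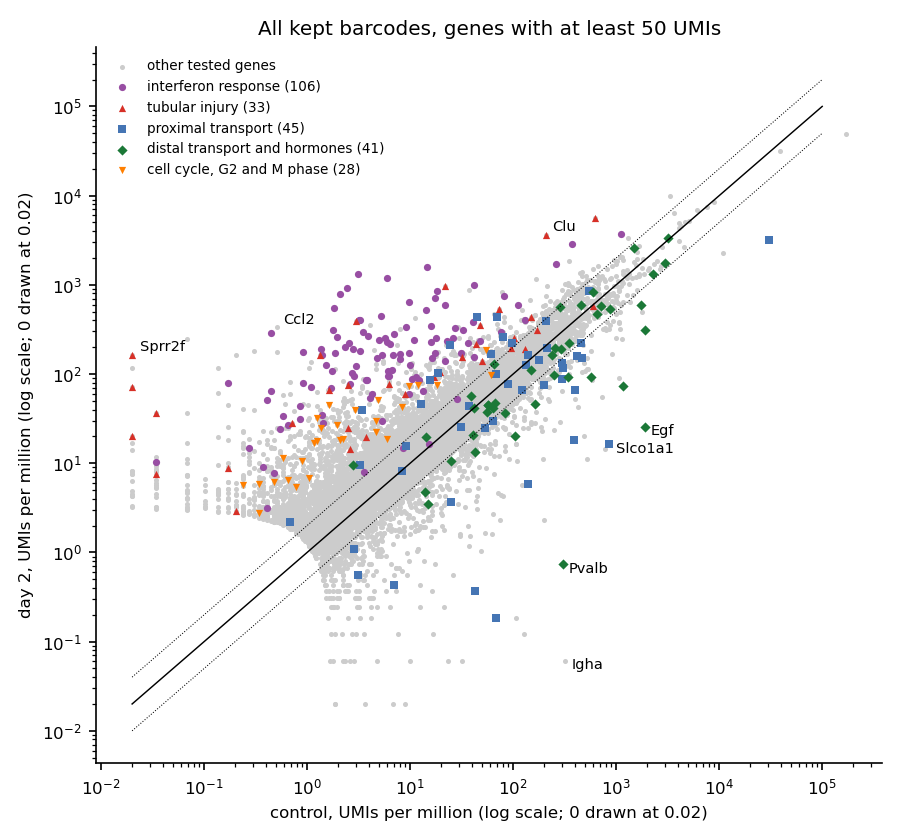
CPM in the control (x axis) and on day 2 (y axis), both on log scales, for each gene with at least 50 UMIs; 0 is drawn at 0.02. The chemokine and Sprr2 genes lie far above the diagonal and Egf, Pvalb and Slc22a7 far below it.

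In proximal tubule barcodes, 5 named genes of the early part of this segment, Slc5a2 among them, were higher on day 2, and 5 named genes of its late part, Slco1a1 among them, were lower. Of 11006 genes tested within these barcodes, 2610 (23.7%) were at least 2-fold higher and 589 (5.35%) at least 2-fold lower. Scaled to the median gene, the counts were 1566 and 1108. Among the 45 apical and basolateral transport genes of the proximal list, 44 were tested in these barcodes: 11 were at least 2-fold higher and 18 at least 2-fold lower, with a median ratio of 0.878. The share of that list that was higher lies near the share of all genes, and the share that was lower lies above it. All 5 early-segment genes and all 5 late-segment genes described next were picked after their values were seen, so they do not stand for all genes of either part. They are named for the part of the tubule in which they are known to be expressed.

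Slc5a2, the sodium-glucose cotransporter SGLT2 (chr7:128265657-128272430), was at 115 CPM in the control, as a share of proximal tubule UMIs, and 836 on day 2, a ratio of 7.26 (6.89 to 7.65). Slc5a12, a lactate transporter, was at 76.1 and 829.9 (ratio 10.9). Slc7a7 and Slc7a8, basolateral amino acid exchangers, had ratios of 10.1 and 26.1, and Slc34a3, a phosphate cotransporter, of 15.02. In the control, 100 of the 550 Slc7a8 UMIs lay in proximal tubule barcodes, and over all barcodes its ratio was 5.46. Each of the 5 early-segment genes was higher in the proximal tubule barcodes of day 2. Slco1a1, an organic anion transporter of the straight segment (chr6:141907282-141946962), was at 1558 and 29.3 CPM, 53.15-fold lower (46.7 to 60.8). Acsm3, an acyl-CoA synthetase, was at 1410.0 and 27.3, 51.7-fold lower. Slc7a13, an apical amino acid transporter of the last part of the segment, was 20.8-fold lower, Slc22a19 was 99.4-fold lower, and Slc22a7 had 1900 UMIs in the control and 1 on day 2. Each of the 5 late-segment genes was lower in the proximal tubule barcodes of day 2. The gate takes the early and late parts together, so a change in their proportions cannot be told apart from a change in levels per cell. Barcodes below its marker minimum are outside it.

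**Figure D3:**
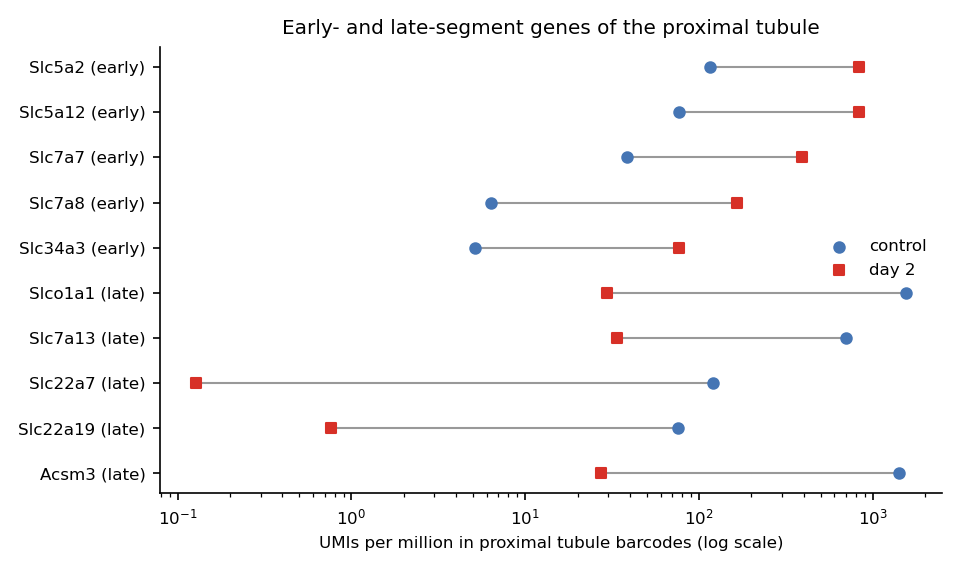
CPM in proximal tubule barcodes (x axis, log scale) of the control and day 2 libraries for 5 early- and 5 late-segment genes. The day 2 value lies to the right of the control for the early genes and to the left for the late genes.

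The same 10 genes were also counted barcode by barcode. Because they were picked for their levels in these barcodes, the shares describe how the UMIs were spread over barcodes and add no further support. Counting a barcode as positive for a set at 2 or more UMIs, 13.3% of control proximal tubule barcodes (484 of 3641) held early-segment genes only and 63.8% (2323) late-segment genes only. On day 2 the early-only share was 73.8% (1402 of 1900) and the late-only share 1.11% (21). Barcodes with both sets were 9.78% and 3.11%, and barcodes with neither 13.1% and 22%. Thinned to 600 UMIs each, with no barcode left out, the early-only shares were 4.86% and 35.4% and the late-only shares 46.0% and 0.474%. In endothelial barcodes, which should lack both sets, early-only shares were 0.929% (median 1448 UMIs) and 7.47% (median 1491 UMIs), and late-only shares 2.79% and 0. Proximal tubule medians were 2631 and 1903 UMIs.

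**Figure D4:**
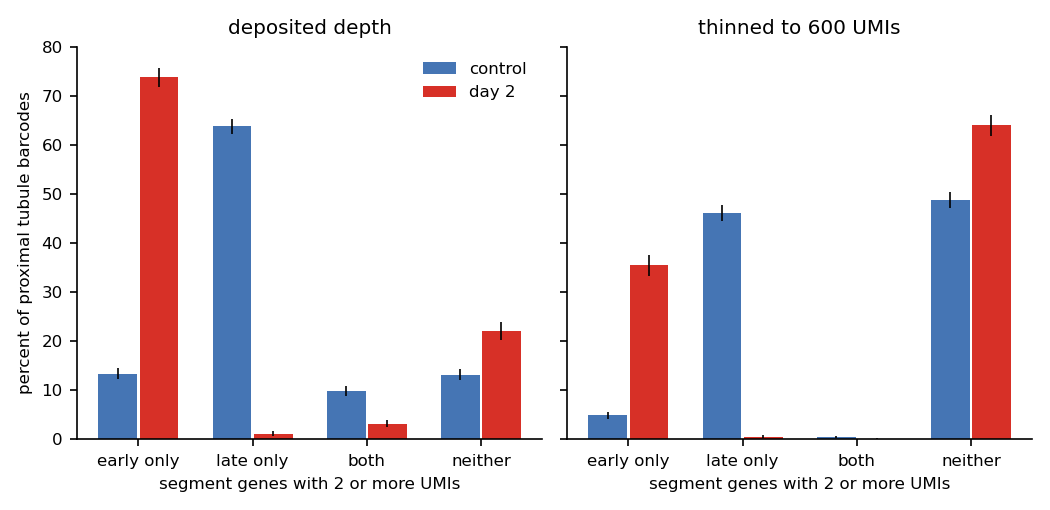
Percent of proximal tubule barcodes (y axis) with at least 2 UMIs of early-segment genes only, late-segment genes only, both or neither (x axis), at deposited depth and after thinning to 600 UMIs; bars are exact 95% counting intervals. The late-only group is at 63.8% in the control and 1.11% on day 2.

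Other transport and metabolic genes of the proximal tubule barcodes were higher in some cases and lower in others. Kap, the androgen-regulated kidney protein of the proximal tubule, was at 54008 CPM in these barcodes in the control and 6103 on day 2. Inmt, a methyltransferase, had 13780 and 300 UMIs in proximal tubule barcodes, and Hpd, an enzyme of tyrosine breakdown, 470 and 0, which is at least 78.15-fold lower against the floor of 3 counts. Hsd11b1, which regenerates active glucocorticoid, was 51.0-fold lower. The glucose transporter gene Slc2a2 had a ratio of 3.72 in these barcodes, the sulfate transporter gene Slc13a1 3.34 and the neutral amino acid transporter gene Slc6a19 3.12, whereas the urate transporter gene Slc22a12 was at 0.349 and the organic anion transporter gene Slc22a6 at 0.405 of the control. The fatty acid oxidation list had 7 of 35 genes at least 2-fold higher in proximal tubule barcodes and 6 at least 2-fold lower, against 23.7% and 5.35% of all genes tested there, with Acaa2 at a ratio of 9.31 and Acadm at 0.253. The 55 nuclear genes of oxidative phosphorylation had a median ratio of 1.28 there, 2 at least 2-fold higher and none lower. Scaled to the median gene, which had a ratio of 1.33, that list had 1 gene higher and none lower.

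Genes that were both higher on day 2 and held at a higher level in proximal tubule barcodes than in the rest of that library numbered 917 of the 2610. These include Cyp24a1, the enzyme that inactivates vitamin D (0.443 and 63.1 CPM, ratio 142, 68.6 to 356), and Cfi, the complement factor I gene (3 and 281 UMIs, ratio 188, 63.6 to 916). Fgg, the fibrinogen gamma chain, had a ratio of 79.9, Ptgds, a prostaglandin D synthase, of 56.9, and Aoc1, a diamine oxidase, of 63.1. Cxcl1, a neutrophil chemoattractant, was at 3.61 and 176.5 CPM (ratio 48.9, 37.5 to 64.9). These genes were picked after their values were seen, by the level outside the class. The 5 firmest ratios by the rule for named genes were of another kind. S100a6 (17 and 3826 UMIs, ratio 451), Ccl2 (0 and 268 UMIs), Vcam1 (2 and 432 UMIs, ratio 433), Lcn2 (2 and 412 UMIs, ratio 413) and Sprr2f (0 and 192 UMIs) stood on day 2 at 0.340, 0.0555, 0.582, 0.0738 and 0.0823 times their level in the rest of the library. With each barcode weighted equally the ratio of Lcn2 was 3450. The part that free RNA played in their presence in proximal tubule barcodes was not tested.

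Most genes of the tubular injury list were higher on day 2, in tubule classes and in some others. This list, like the other gene lists, was chosen with earlier results of these data known. Its counts therefore describe these libraries and are no independent support. Over all barcodes 30 of the 33 genes of this list were at least 2-fold higher and none was 2-fold lower, with a median ratio of 8.96, against 21.1% of all genes higher and a median of 1.29. Havcr1, the phosphatidylserine receptor KIM-1, was at 1.32 CPM in the control and 162 on day 2 (ratio 122, 89.2 to 172). Lcn2, which binds bacterial siderophores, was at 2.96 and 391 (ratio 132). Clu, the extracellular chaperone clusterin, was at 209 and 3624 (ratio 17.4), and Spp1, the secreted phosphoprotein osteopontin, at 621 and 5564 (ratio 8.96). Krt20, a keratin, had no control UMI and 328 on day 2, at least 198-fold higher. Vcam1, an adhesion molecule for leukocytes, had a ratio of 30.3, and Timp1, an inhibitor of matrix proteases, had 5 and 145 UMIs (ratio 52.45). Mt1, a metallothionein, stood at 0.980 of the control and the keratin gene Krt7 at 1.46. The list had 25 of 28 tested genes at least 2-fold higher in proximal tubule barcodes (median 22.6), 17 of 19 in the thick ascending limb (median 8.65), 14 of 21 in collecting duct principal cells (median 5.78), 9 of 14 in intercalated cells (median 3.54), 9 of 11 in stromal barcodes (median 3.97), 11 of 17 in macrophages (median 4.63), 5 of 18 in endothelial barcodes (median 1.30) and 3 of 9 in podocytes (median 1.29). The shares of all genes at least 2-fold higher in these classes, in the same order, were 23.7%, 20.2%, 12.5%, 17.3%, 21.5%, 32.8%, 8.67% and 3.88%. In macrophages, most of whose UMIs came from day 2, the minimum of UMIs per gene favours genes high on day 2.

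The epithelial barcodes without a segment gate held much of the Havcr1 expression. On day 2 these 321 barcodes carried 49.0% of the library's Havcr1 UMIs, and barcodes that passed no gate at all a further 32.4%. Havcr1 was seen in 300 barcodes of the library. Of the library's 6365 Lcn2 UMIs the epithelial group held 1449, fewer than the 2069 in principal cells, and of its 59002 Clu UMIs 17482. Set against the proximal tubule barcodes of the same library, the group had 25 of 30 tested injury genes at least 2-fold higher, against 16.4% of 10151 genes tested. Clu was at 9748 CPM against 454.5 (ratio 21.4, 20.7 to 22.2), Spp1 at 16502 against 1927 (ratio 8.56), Havcr1 at 720 against 52.5 (ratio 13.7), Lcn2 at 808 against 52.3 (ratio 15.5) and Mt2 at 1079.5 against 47.2 (ratio 22.9). Because the group is defined by general epithelial keratins and cadherins without segment markers, low transport genes in it are part of its definition. The proximal tubule barcodes it is set against were chosen for their proximal markers. Krt8, a gate gene of the group, was itself higher on day 2 over all barcodes. How much of the excess of injury genes follows from the choice of these gates was not tested. Of the 775 UMIs of urothelial genes (Upk1a, Upk1b, Upk2, Upk3a and Psca) in the day 2 library, 725 lay in this group, nearly all in 4 barcodes of very high depth (median 27179.5 UMIs). Without those 4 barcodes, 24 of the 30 injury genes were at least 2-fold above the proximal tubule, against 15.5% of genes tested. Clu was then at 11242 CPM, Spp1 at 18732.5, Lcn2 at 951 and Havcr1 at 678, while Vcam1 was at 79.0 against 852 in the 4 and Sprr1a at 90.2 against 1326. Urothelial genes had 30 UMIs in the control.

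In thick ascending limb barcodes Egf and mitochondrial genes were lower and Lcn2 and Clu were higher. Of 8963 genes tested, 1814 (20.2%) were at least 2-fold higher and 561 (6.26%) at least 2-fold lower. Scaled to the median gene the split turned, with 884 higher and 1087 lower. Egf was at 7164 CPM in the control and 246 on day 2, 29.1-fold lower (26.0 to 32.6), and Wfdc15b, a secreted protease-inhibitor-like protein, was 8.06-fold lower. Tmem207 had 1741 and 21 UMIs (17.1-fold lower, 11.1 to 27.7), Nccrp1 585 and 3, AA465934 819 and 2, and Atp4a, a proton pump subunit, 320 and 0, at least 21.98-fold lower. Lcn2 was at 4.34 and 1226 CPM (ratio 282, 192 to 433.5), Clu at 30.4 and 4059 (ratio 133.5, 115 to 156), Cd14, a receptor for bacterial lipopolysaccharide, at 1.34 and 222 (ratio 166), Rasd1 at 0.835 and 154.8 (ratio 185) and Serpinb6b had 2 and 131 UMIs. On day 2 these 5 genes stood at 1.015 to 3.801 times their level in the rest of the library.

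All 15 mitochondrially encoded genes were at least 2-fold lower in thick ascending limb barcodes, with a median ratio of 0.361, against 6.26% of all genes tested in the class. Of the 55 nuclear genes of oxidative phosphorylation, 17 were at least 2-fold lower and none higher, with a median ratio of 0.539. Relative to the median gene of the class, 48 of the 55 were at least 2-fold lower, against 12.1% of all genes on that scale. In the proximal tubule the mitochondrially encoded genes had 7 of 15 at least 2-fold higher and 2 lower, with a median ratio of 1.90, against 23.7% and 5.35% of all genes. Relative to the median gene 1 of the 15 was at least 2-fold higher, against 14.2% of all genes on that scale, and their summed level went the other way, from 223871 to 126190 CPM. The immediate early list, whose genes are induced within minutes by stress and growth factors and by tissue dissociation, had 20 of 24 genes at least 2-fold higher in the thick ascending limb (median 3.32), against 20.2% of all genes, and 14 of 24 relative to the median gene, against 9.86% of all genes on that scale. The haemoglobin genes were also higher there, and the 384 Hbb-bs UMIs of the class on day 2 lay in 5 barcodes.

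Over all barcodes the list of distal transport and hormone genes had 1 of 41 at least 2-fold higher and 15 at least 2-fold lower, with a median ratio of 0.649, against 21.1% of all genes higher and 5.36% lower. Slc12a1, the furosemide-sensitive cotransporter of the thick ascending limb, was at 1884 and 308 CPM, Slc12a3, the thiazide-sensitive cotransporter of the distal convoluted tubule, at 164 and 46.6, and Calb1, the calcium-binding calbindin, at 566 and 91.5. Umod, the major urinary glycoprotein, was at 1732 and 595. The gene higher was Trpv5, an apical calcium channel, with 82 and 155 UMIs (ratio 3.42). The shares of the classes moved with these sums, and their part was not tested.

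Collecting duct principal cells held most of the Sprr2f and Sprr2g UMIs of day 2. Of 5717 genes tested in them, 715 (12.5%) were at least 2-fold higher and 275 (4.81%) at least 2-fold lower. With median scaling the counts were 586 and 430. Sprr2f had 1556 UMIs in these barcodes on day 2 and none in the control, at least 384-fold higher, and this was 58.1% of the library's Sprr2f UMIs. It was seen in 37.5% of the class (109 of 291 barcodes), against 3.73% of endothelial barcodes of that library, at median depths of 2895 and 1491 UMIs. Sprr2g, with 623 of the library's 1159 UMIs, was at least 154-fold higher. Their relatives Sprr2a1, Sprr2a2 and Sprr2a3 lay elsewhere: 188 of 208, 223 of 243 and 181 of 189 UMIs came from the 4 epithelial barcodes with urothelial genes. Lcn2 was at 32.1 and 1638 CPM (ratio 51.1, 35.65 to 75.9), Clu at 1077 and 15422 (ratio 14.3), Krt19, a keratin, at 5.35 and 344 (ratio 64.3) and Emp2, a tetraspan membrane protein, had 2 and 318 UMIs. Plac8, with 0 and 395 UMIs, stood on day 2 at 0.712 of its level in the rest of the library. Btc, the growth factor betacellulin, was 3.81-fold lower (3.19 to 4.57) and Vegfa 5.03-fold lower. BC018473 had 824 UMIs and none on day 2, at least 371-fold lower. The water channel Aqp2, which serves in the gate, was at a ratio of 1.02.

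Intercalated cells, which secrete acid or base, had few barcodes. Of 2007 genes tested, 348 (17.3%) were at least 2-fold higher and 122 (6.08%) at least 2-fold lower, and 216 and 222 with median scaling. Lcn2 had 0 and 99 UMIs, at least 79.99-fold higher, and Clu was at 257 and 11676 CPM (ratio 45.4, 37.8 to 55.0). With at most 25% mitochondrial UMIs per barcode Lcn2 was at least 17.1-fold higher in this class, and with doubled gate shares the ratio of Clu was 25.2. The 62 Sprr2f UMIs of this class on day 2 lay in 5 of its 57 barcodes. Mme, the endopeptidase neprilysin, was 5.02-fold lower (3.14 to 8.48) and 2.99-fold lower with at most 25% mitochondrial UMIs. Car2, a carbonic anhydrase, was 2.46-fold lower (2.15 to 2.81) and Atp6v1a, a subunit of the proton pump, 2.24-fold lower (1.98 to 2.55). On day 2, 46 barcodes lay within 1.5-fold of the gate minimum, on either side, beside 57 in the class. In the control these were 33 and 134. Car2 and Atp6v1a were not tried under other gates, and the part of the gate in their ratios was not tested.

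Podocytes, the filtration cells of the glomerulus, had 9.65% of their tested genes 2-fold apart either way. Of 850 genes tested, 33 (3.88%) were at least 2-fold higher and 49 (5.76%) at least 2-fold lower. The shallow depth of the class limits what could be tested: it held 147345 UMIs in the control and 82942 on day 2. Plod2, a collagen lysyl hydroxylase, was at 305 and 1652 CPM (ratio 5.41, 3.84 to 7.75), Serpinb6b at 224 and 1025 (ratio 4.58) and Nupr1, a stress-induced nuclear protein, at 2328 and 6076.5 (ratio 2.61). Jun and Fos were 2.71-fold and 2.83-fold lower and Calm2, a calmodulin, 2.94-fold lower.

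Of the interferon-response genes, 96 of 100 tested in endothelial barcodes were at least 2-fold higher on day 2, and they made up 96 of the 424 genes higher in this class. Of 4893 genes tested, 424 (8.67%) were at least 2-fold higher and 403 (8.24%) at least 2-fold lower, and 463 and 312 with median scaling. Ifi202b had 0 and 1095 UMIs and Gm4951 30 and 772 UMIs, both of the interferon-induced families though off the list. Among other genes, Vcam1 was at 49.5 and 225 CPM (ratio 4.55), and Pttg1, the securin of mitosis, had 7 and 127 UMIs (ratio 16.7). Scn7a, a sodium channel, had 84 UMIs and none on day 2, at least 30.4-fold lower. Mgp, the matrix Gla protein, was at 1128 and 149 CPM (7.56-fold lower, 6.23 to 9.25), Jag1, a Notch ligand, was 5.24-fold lower and Klf4, a transcription factor, 3.39-fold lower (2.97 to 3.89). The gate takes endothelial cells of all vessels together, so a change in their proportions cannot be told apart from a change in levels per cell. Of 24 immediate early genes tested, none was at least 2-fold higher and 9 were at least 2-fold lower (median 0.573). Haemoglobin genes, which mark red cells, had 2990 UMIs in the endothelial barcodes of the control, 2977 of them in 3 barcodes, and 6 on day 2. Their part in the other values of the class was not tested. The endothelial function list had 6 of 25 genes at least 2-fold higher and 2 lower, with Nos3, the nitric oxide synthase, at 1.11 and Procr, the protein C receptor, at 2.84.

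Stromal barcodes, 67 in each library, had Myh11 and Cnn1 at a lower level and Timp1 and Mgp at a higher level. Of 1037 genes tested, 223 (21.5%) were at least 2-fold higher and 108 (10.4%) at least 2-fold lower, 31.9% either way, and 185 and 132 with median scaling. Myh11, smooth muscle myosin, was at 7147 and 914.6 CPM (7.8-fold lower, 6.57 to 9.36), Cnn1, calponin, had 69 and 6 UMIs, Tpm2, a tropomyosin, was 3.73-fold lower and Myl9, a myosin light chain, 3.49-fold lower. Timp1 had 0 and 63 UMIs, at least 19.0-fold higher, Mgp was at 1438 and 9897 CPM (ratio 6.88, 5.95 to 7.99) and Loxl2, a collagen cross-linking enzyme, had 3 and 50 UMIs. The list of actin cytoskeleton genes and galectins had 9 of 26 at least 2-fold higher and 1 lower. The matrix list had 12 of 17 genes at least 2-fold higher and 1 lower. It includes Col1a1, Col1a2 and Col3a1, which also serve in the stromal gate and are no finding within it. The gate takes fibroblasts, pericytes and smooth muscle cells together, so a change in their proportions cannot be told apart from a change in levels per cell.

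In macrophage barcodes the monocyte chemoattractants, Plac8 and Vim were higher on day 2, and Il1b and the class II genes were lower. Of 2988 genes tested, 981 (32.8%) were at least 2-fold higher and 273 (9.14%) at least 2-fold lower, 42% either way, and 618 and 540 with median scaling. The control side rests on 47 barcodes and 64788 UMIs, the day 2 side on 252 barcodes and 883555 UMIs. Median depth per barcode was 1195 and 2562.5 UMIs. The minimum of UMIs per gene applies to both libraries together, so here it was met mostly by day 2 UMIs. It therefore favours genes that were high on day 2. With a minimum of 20 UMIs per gene 13.0% of genes were at least 2-fold lower, and with 100 UMIs 6.62%. The shares of all genes against which gene lists are set in this class depend on that minimum. The gate takes monocytes and macrophages together, so a change in their proportions cannot be told apart from a change in levels per cell. Ccl2 was at 201 and 4710.5 CPM (ratio 23.5, 13.7 to 44.1), seen in 2 of the control barcodes and in 85.7% of those of day 2, against 6.79% of the proximal tubule barcodes of that library (median 1903 UMIs). Ccl12 was at 77.2 and 2625 (ratio 34.01) and Ccl7 had 0 and 1593 UMIs, at least 38.9-fold higher. The whole chemokine and cytokine list had 7 of 16 tested genes at least 2-fold higher in this class and 4 lower (median 1.56), and its summed level was 14848 and 13650.5 CPM. On day 2 this class held 76.9% of the library's Ccl2 UMIs, 83.6% of Ccl7 and 87.9% of Ccl12, while 6.17% of barcodes were in it.

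Plac8, a gene of monocytes and interferon-stimulated cells, had 0 and 2469 macrophage UMIs, at least 60.35-fold higher, and Ly6c2, the Ly6C antigen of inflammatory monocytes, 0 and 1446, at least 35.3-fold higher. Ly6c2 is also on the interferon list. Ifi202b happened to have the same macrophage sums, 0 and 1446 UMIs, with different counts over the whole day 2 library (3979 for Ifi202b and 4089 for Ly6c2). Vim, vimentin, had 0 and 1163 UMIs, Lgals3, galectin-3, 4 and 1583 (ratio 29.0, 11.3 to 107), S100a4 1 and 689, and Spp1 3 and 2608 (ratio 63.75, 21.8 to 309). Spp1 stood on day 2 in macrophages at 0.517 of its level in the rest of the library, and it was higher in each of the 9 classes compared, so its ratio is not particular to macrophages. The part of free RNA in it was not tested. Il1b, the cytokine interleukin-1 beta, was at 7424 and 247 CPM, 30.1-fold lower (25.6 to 35.5). Cd83, a marker of activated antigen-presenting cells, was 24.4-fold lower and Mmp13, a collagenase, 19.2-fold lower. The class II genes H2-Aa, H2-Ab1 and H2-Eb1 were 5.91-fold, 5.74-fold and 6.49-fold lower and Cd74, their invariant chain, 4.64-fold lower. Apoe, apolipoprotein E, was at 8319 and 1440 (5.78-fold lower) and Cx3cr1, the fractalkine receptor of resident kidney macrophages, at 1034 and 263 (3.94-fold lower, 2.96 to 5.19). Of the 35 tested genes of the macrophage state list, 13 were at least 2-fold higher, a share near the 32.8% of all genes in the class, and 9 at least 2-fold lower, against 9.14%. Both shares of all genes depend on the minimum of UMIs per gene, which favours genes high on day 2 in this class. The immediate early list had 1 of 22 genes at least 2-fold higher in macrophages and 15 at least 2-fold lower (median 0.291), with Egr1 6.55-fold and Fos 3.55-fold lower.

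The 25 control and 38 day 2 barcodes of the T or NK gate allowed 260 genes to be tested, of which 23 (8.85%) were at least 2-fold higher and 7 (2.69%) at least 2-fold lower. Gzmb, the cytotoxic protease granzyme B, was at 461.5 and 4521 CPM (ratio 9.80, 5.73 to 18.2), and Id2, a transcriptional regulator of cytotoxic lymphocytes, at 1022 and 2920 (ratio 2.86, 1.94 to 4.34). Because T and NK cells share this gate, their proportions and levels per cell cannot be told apart. Kap, which these cells should lack, was at 5571 CPM in the control barcodes of this gate and 422 on day 2. It was lower on day 2 in each of the 9 classes compared, and outside the proximal tubule it stood at no more than 0.185 times its level in the rest of the same library.

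Cell cycle genes were higher on day 2, in lists that were also chosen with earlier results of these data known. Of 28 genes of the G2 and M phases, 27 were at least 2-fold higher over all barcodes and none lower, with a median ratio of 9.38, and 18 of 23 S phase genes were higher (median 4.23), against 21.1% of all genes higher and a median of 1.29. Ccnb2, a mitotic cyclin, had 37 and 524 UMIs (ratio 25.6), Birc5, survivin, had a ratio of 27.9, Cdk1, the mitotic kinase, of 14.3, Top2a, a topoisomerase, of 6.31 and the proliferation marker Mki67 of 7.57. Barcodes with at least 3 of the G2 and M genes were 3% of the control (184 barcodes) and 13.1% of day 2 (537 barcodes), and 0.391% and 3.67% after thinning to 600 UMIs. In the proximal tubule the shares were 2.17% and 10.5%, or 0.110% and 1.95% thinned. In macrophages they were 4.26% (2 of 47, 0.520 to 14.5) and 39.3% (99 of 252, 33.2 to 45.6), or 4.26% and 18.25% thinned. The epithelial group without a segment had 22.1% on day 2, or 8.41% thinned. Of 16 G2 and M genes tested in macrophages, 7 were at least 2-fold higher (median 1.89), against 32.8% of all genes in the class (median 1.44). The minimum of UMIs per gene favours genes high on day 2 in macrophages. Relative to the median gene 3 of the 16 were at least 2-fold higher, against 20.7% of all genes on that scale. Collecting duct principal cells differed: 3 of 6 tested G2 and M genes were at least 2-fold lower and none higher (median 0.316), against 4.81% and 12.5% of all genes in the class, and Mki67 was at 72.7 and 7.92 CPM and Top2a at 83.4 and 8.71. There the shares were 4.31% (10 of 232) and 6.53% (19 of 291) at full depth, and 1.72% (4 barcodes) and 0 thinned, which allows up to 1.03% (3 barcodes of the class). The thinned shares and the levels go against the order at full depth, so no order was read from the latter.

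**Figure D5:**
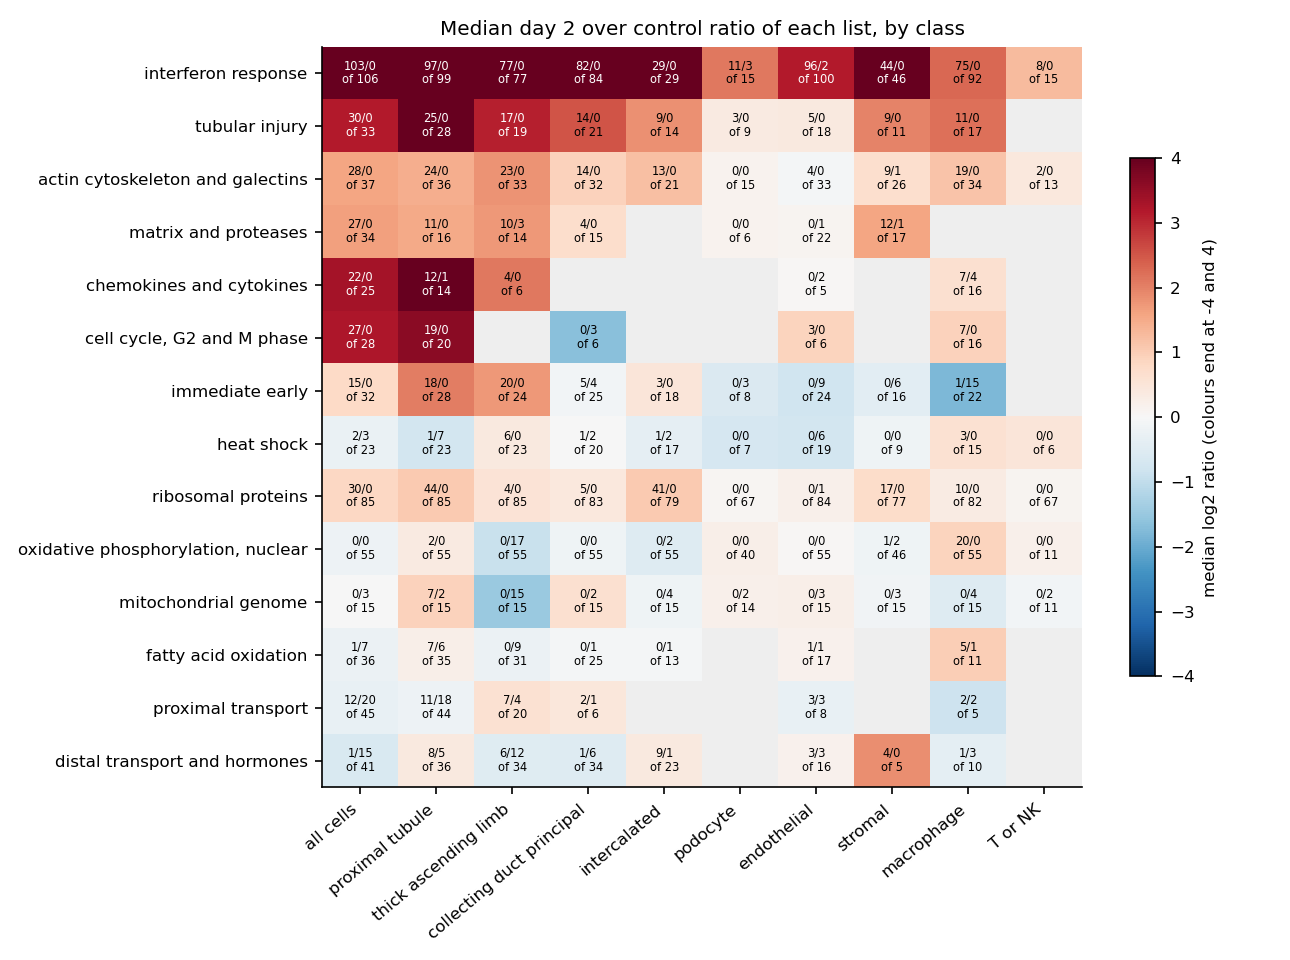
Median log2 ratio of day 2 over control for each gene list (vertical) in each cell class (horizontal), with the colour scale ending at -4 and 4. The G2 and M list is at a median ratio of 12.3 in the proximal tubule and 0.316 in principal cells (6 of 28 genes tested), and the immediate early list at 4.11 and, in macrophages, 0.291.

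Promoter sequences are shown for 3 mitotic genes and for the chemokine genes Cxcl1 and Cxcl2, which were higher on day 2 and were picked because their upstream regions hold a short motif. RefSeq promoters of GRCm38.p6 were searched over the 250 bases before each start, on both strands, for 11 motifs picked after the ratios were known. These were the CCAAT box, the cell cycle homology element TTTGAA, the AP-1 site TGACTCA, the cAMP response element TGACGTCA, the E2F site GCGCGAAA, the STAT site TTCNNNGAA, the E-box CACGTG, the hexamer GATTTC, and longer sites of NF-kappaB, HNF1 and heat shock factor. Matches of different motifs could overlap. Counts are of genes with a promoter in this set, and a gene counted when any of its promoters held a match. CCAAT was found for 21 of 23 genes of the G2 and M list (91.3%), 10 of 18 of the S phase list (55.6%) and 37.5% of all 27025 genes. TTTGAA was found for 10 of 23 G2 and M genes (43.5%) and 18.3% of all, and for 2 of 18 S phase genes (11.1%). The NF-kappaB site was found for 7 of 23 genes of the chemokine list (30.4%) and 1.65% of all, so most genes of that list held no match. The E2F site GCGCGAAA was found for 3 of 18 S phase genes (16.7%) and 0.2997% of all. TGACTCA was found for 5 of 24 injury genes and 5.16% of all. A match describes letters in a window and shows no binding. The 150 bases before the start are printed 5′ to 3′ on the gene's strand, with each match to CCAAT or its reverse complement in capitals for Ccnb2 (chr9:70421555-70421704, minus strand), Cdk1 (chr10:69352913-69353062, minus strand) and Top2a (chr11:99024190-99024339, minus strand), and each match to the NF-kappaB site on either strand in capitals for Cxcl1 (chr5:90891095-90891244, plus strand) and Cxcl2 (chr5:90903749-90903898, plus strand).
Ccnb2: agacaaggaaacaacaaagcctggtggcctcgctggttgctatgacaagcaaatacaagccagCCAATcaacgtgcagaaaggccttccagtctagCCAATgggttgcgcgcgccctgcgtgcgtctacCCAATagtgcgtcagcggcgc
Cdk1: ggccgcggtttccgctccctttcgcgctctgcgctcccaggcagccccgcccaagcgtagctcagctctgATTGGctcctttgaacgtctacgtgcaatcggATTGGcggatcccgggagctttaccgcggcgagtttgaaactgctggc
Top2a: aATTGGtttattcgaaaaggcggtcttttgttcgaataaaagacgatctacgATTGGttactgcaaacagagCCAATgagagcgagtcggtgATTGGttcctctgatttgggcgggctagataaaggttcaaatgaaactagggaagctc
Cxcl1: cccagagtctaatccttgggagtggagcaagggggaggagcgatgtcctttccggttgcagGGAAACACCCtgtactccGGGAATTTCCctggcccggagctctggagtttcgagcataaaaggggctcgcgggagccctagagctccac
Cxcl2: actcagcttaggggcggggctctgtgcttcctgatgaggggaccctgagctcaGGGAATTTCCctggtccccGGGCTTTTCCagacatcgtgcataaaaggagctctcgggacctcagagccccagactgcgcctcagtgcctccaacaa
Ccnb2 held 3 CCAAT matches in this window, Cdk1 2 and Top2a 4, and both chemokine promoters held 2 matches to the NF-kappaB site.

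Some chemokine and cytokine genes other than the monocyte chemoattractants differed in direction between classes, or between a class and all barcodes. Over all barcodes 22 of 25 genes of the chemokine and cytokine list were at least 2-fold higher and none lower (median 10.03). The lists counted in this paragraph were chosen with earlier results of these data known. Cxcl1, the first of the neutrophil chemokines whose promoters are printed, was at 4.69 and 130 CPM, and in endothelial barcodes it was 3.03-fold lower on day 2 while in the proximal tubule it was 48.9-fold higher. Cxcl2 had 100 and 1126 UMIs over all barcodes (ratio 20.4) but was at 1358 and 688 CPM in macrophages. Cxcl16 had a ratio of 7.39, Tnf of 15.2 and Il1rn, the interleukin-1 receptor antagonist, had 1 and 153 UMIs. Il1b had 544 and 742 UMIs over all barcodes (ratio 2.47), although its level within macrophage barcodes was lower. Of 19 complement and acute phase genes, 15 were at least 2-fold higher (median 7.84), and of 34 matrix and protease genes 27 (median 3.14), against 21.1% of all genes and a median of 1.29. Tgfbi, a matrix protein, had 40 and 547 UMIs (ratio 24.7).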

How the data were processed

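Single-cell suspensions were run on Drop-seq, which captures the mRNA of each cell on a barcoded bead, and 3' ends were sequenced, per the labels' protocols. Bowtie2 2.2.7 and mm10 are named in the submitters' processing notes, with no role. The authors deposited 1 table of whole-number counts per gene symbol and barcode for each library, read here as UMI counts, which the labels do not state. The strand setting of the counting is not given in the sources used here. The deposited tables of both libraries hold no barcode with fewer than 500 genes.

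Barcodes were gated on marker genes (102 of 103 were in the tables): at least 3 UMIs, at least 2 markers, and a minimum share of the non-mitochondrial UMIs from 0.15% to 1% by class, set after the distributions of the markers were seen. No doublet caller was run. Barcodes that passed several gates were set aside as mixed. UMIs were summed over the barcodes of a class and divided by their total. The ratio of day 2 to control in UMIs per 1000000 (CPM) carries an exact conditional binomial 95% interval. Genes needed 50 UMIs in both libraries together, the fold was 2, and a class needed 20 barcodes in each library. A gene at 0 was set at 3 counts in that library for its bound. Beside some ratios the level in a class over the rest of its library is given. Free RNA was not estimated. Genes named are the first 10 per direction over all barcodes and the first 5 per class, ranked by the interval limit nearest 1, leaving out interferon, mitochondrial, haemoglobin and, within classes, gate genes, and 2 to 4 members of each list; others are said to be picked after their values were seen or are explained for their role. Some genes that the rule names are not reported here. The members and the 25 lists were chosen with earlier results of these data known. The calculation was tested on simulated data. Positions come from GENCODE vM21 (GRCm38): 115 of 117 genes looked up were found, 17 overlapped another gene on their strand and 35 on the opposite strand. Python 3.11.15, numpy 2.4.6, scipy 1.17.1 and matplotlib 3.10.9 were used.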

Additional observations from a re-analysis of the deposited data

Results flagged for a closer look

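The lists of immediate early and of mitotic genes took opposite directions in different classes of the same libraries. The immediate early list had a median ratio of 4.11 over 28 tested genes in proximal tubule barcodes and of 0.291 over 22 genes in macrophage barcodes. The list of G2 and M phase genes had a median ratio of 12.3 over 20 tested genes in proximal tubule barcodes and of 0.316 over 6 genes in collecting duct principal barcodes. The difference between classes was not tested, because each class rests on 1 library per side. The control macrophage barcodes numbered 47, and their median depth of 1195 UMIs was below the 2562.5 UMIs of day 2. Among principal cells, barcodes with at least 3 of the G2 and M genes went the other way at full depth. They were 4.31% (10 of 232) in the control and 6.53% (19 of 291) on day 2, and 4 barcodes and 0 after thinning.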

How the results depend on the processing

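Alternatives changed 1 choice at a time. Of 800 values of named ratios, 698 lay within the 95% counting interval of the reported value, 102 lay outside it, 53 of these more than 1.5-fold from the reported value, and 0 reversed. The rule that named these genes takes ratios far from 1, so the absence of reversals adds little. With each barcode weighted equally, genes with 0 UMIs on one side kept their reported bound and could not move. Without the deepest 5% of barcodes the ratio over all barcodes was 179 for Sprr1a, 1096 for S100a9, at least 1045 for Sprr2f and at least 394.5 for Sprr2g, in the proximal tubule 257 for S100a6 and in the thick ascending limb 164 for Lcn2 and 71.8 for Cd14, while AA465934 was 14.1-fold, Nccrp1 10.2-fold and Atp4a at least 5.28-fold lower there. With each barcode weighted equally Ccl2 was at 279, Ms4a4c at 269, S100a8 at 1627 and S100a9 at 1283 over all barcodes, and Slc22a7 was 121.6-fold lower. With at most 25% mitochondrial UMIs Ccl7 was at least 739-fold higher and Pvalb 197-fold lower over all barcodes, and Lcn2 was at 155 in the thick ascending limb. Without the deepest 5% Hpd was at least 43.85-fold lower in the proximal tubule and Scn7a at least 20.2-fold lower in endothelial barcodes. Median-ratio scaling gave genes higher and lower of 1906 and 1282 (all barcodes), 1566 and 1108 (proximal tubule), 884 and 1087 (thick ascending limb), 216 and 222 (intercalated) and 618 and 540 (macrophage), and 430 lower in principal cells and 12 in T or NK cells. Totals without mitochondrial, haemoglobin and interferon UMIs gave 1049 and 912 (thick ascending limb), 204 and 236 (intercalated) and 416 lower (principal). A minimum of 20 UMIs per gene gave 1267 and 542 (principal), 914 and 328 (intercalated), 172 and 199 (podocyte), 735 and 850 (endothelial), 574 and 327 (stromal), 141 and 44 (T or NK) and 733 lower (macrophage), and of 100 UMIs, in the same order of classes, 400 and 142, 174 and 62, 9 and 22, 264 and 218, 100 and 43, 6 and 3, and 620 and 110, because other numbers of genes are tested. At most 25% mitochondrial UMIs gave 1112 higher in the thick ascending limb and 160 and 57 in intercalated cells. Leaving out the deepest 5% of barcodes gave 212 higher in intercalated cells. Gate shares halved or doubled, chosen after seeing the data, gave 227 and 543 higher in intercalated cells and, doubled, 171 lower in macrophages. Apart from the minimum per gene, the cause was not tested.

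Shares as day 2 minus control, in percentage points, moved at 25% mitochondrial UMIs to -0.698 (thick ascending limb), -1.845 (distal convoluted tubule), -1.07 (podocyte), 0.882 (endothelial), 0.144 (stromal) and 0.342 (T or NK), and reversed to 0.22 for intercalated cells from -0.79. With gate shares halved they were -1.655 (distal convoluted tubule), 0.237 (stromal), 0.563 (neutrophil) and 3.83 (epithelium without a segment), and doubled 1.35 (principal). Thinned to 600 UMIs per barcode they were 2.42 (macrophage) and 4.29 (epithelium without a segment). Depth limits classes with few UMIs: 260 genes could be tested in T or NK cells, 850 in podocytes and 1037 in stromal barcodes. No paired analysis was possible because the labels number libraries only for days 7, 11 and 14, and day 2 and the control have 1 library each.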

Other observations

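Set beside the other 9 libraries of the series, the day 2 library had the highest level of each of the 5 early-segment genes. Because these genes were picked after their day 2 values were seen, this order partly restates that choice and adds no further support. Slc5a2 was at 441 CPM on day 2 and between 53.7 and 242 in the others. Slc5a12 was at 436 against 20.5 to 132, Slc7a7 at 209 against 24.5 to 109, Slc7a8 at 102 against 13.5 to 49.9 and Slc34a3 at 39.98 against 1.84 to 21.7. The late-segment gene Slc22a7 was at 67.4 in the control, at most 1.63 in the libraries of days 1 to 7, and between 25.6 and 80.6 in those of days 11 and 14. Other late-segment genes were not all that low on day 4. Slc7a13 was then at 274 CPM against 393 in the control, and Slco1a1 at 166 against 859. Acsm3 was at 146 against 782 and Slc22a19 at 4.80 against 42.4. Libraries of 1 day could lie far apart for such genes: Acsm3 was at 1.97 and 26.9 in those of day 7.

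Havcr1, Lcn2 and Spp1 stood lower on day 2 than in the libraries of days 1, 4 and 7. Havcr1 was at 1001 CPM on day 1, 162 on day 2, 1066 on day 4 and 741 and 379 in the day 7 libraries. Lcn2 was at 1276, 391, 698, and 1039 and 936. Spp1 was at 17038, 5564, 7850, and 7884.5 and 10567. Sprr2f did not share that order: it was at 722 on day 1, 164.5 on day 2, 109.5 on day 4 and 151 and 95.02 on day 7, and at most 0.378 in the libraries of days 11 and 14. Day 2 had the highest Cxcl10, at 555 against at most 109 elsewhere, and the highest Plac8, at 430 against at most 373. S100a8 and S100a9 were at 163 and 229 on day 1, 180 and 178 on day 2 and at most 34.55 and 29.9 later. Except for days 7, 11 and 14 these are single libraries, and no difference between days was tested.

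A pair of transcripts separated the control from day 2 without following the days. BC018473 was at 127 CPM in the control, 40.04 and 24.2 in the day 11 libraries and at most 3.10 in the other libraries. AA465934 was at 74.95 in the control, 79.3 and 46.0 on day 11 and at most 4.23 elsewhere. Igha was at 322 in the control and between 0.0614 and 58.0 elsewhere. Its level differed widely between libraries of 1 day, at 57.96 and 1.13 on day 11 and 1.07 and 23.8 on day 14.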
